A study of Mus musculus with 16 samples.

Results

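Cholesterol and fatty acids are built by enzymes whose genes are largely read by one family of transcription factors, and 35 mouse genes of this system were followed here in the newborn lung. The genes were chosen by name: 6 sterol regulators, 6 enzymes of the mevalonate and isoprenoid steps, 11 sterol enzymes, 5 genes of fatty acid synthesis and 7 elongases and desaturases. All 35 of 35 were found on the array through its gene symbols, 1 of them (Msmo1) under the older symbol Sc4mol. They had 53 features, which are printed probe spots, of 62976 on the array, and they are 35 of the 20173 named genes tested. RNA came from lung homogenates of pups at postnatal day 3, and each array carried 1 Cy3-labelled sample. The 4 groups held 4 arrays each: Fgf10+/- pups in hyperoxia, wild-type pups in hyperoxia, Fgf10+/- pups in normoxia and wild-type pups in normoxia. Hyperoxia meant 85% oxygen in a chamber from day 0 to day 3. Fgf10+/- pups were heterozygous at the gene of fibroblast growth factor 10, a mesenchymal signal for lung epithelial growth. The labels name the genotype and no strain, promoter or Cre driver. The labels number the replicates and are silent on litters, so a p-value here reflects the spread among these arrays, which may be technical in part. No batch is stated, and in the sample list all hyperoxia arrays come before all normoxia arrays. A batch that followed this order could not be told apart from oxygen.

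Cells make cholesterol from acetyl-CoA through mevalonate, farnesyl diphosphate, squalene and lanosterol, and they make palmitate from acetyl-CoA through malonyl-CoA. When sterol in the endoplasmic reticulum runs low, SCAP carries the membrane-bound factors SREBP1 and SREBP2 to the Golgi, where proteases release them to switch on the genes of both routes, and INSIG proteins hold SCAP back when sterol is plentiful. In the perinatal lung, alveolar type 2 cells use both routes for surfactant, a mixture of phospholipid, cholesterol and proteins, and dividing cells use them for membrane.

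All values are log2 intensities, so a difference of 1 is a 2-fold difference, and the middle feature of every array stood at 4.50. Fgf10 itself read 7.39, 7.96, 7.73 and 7.48 on the arrays labelled Fgf10+/- in hyperoxia, against 7.64, 7.80, 7.90 and 8.07 in wild-type hyperoxia. In normoxia it read 7.88, 8.29, 8.29 and 8.66 on the arrays labelled Fgf10+/-, against 7.83, 8.14, 7.24 and 7.97 in wild type. The groups overlapped at both oxygen levels and neither difference passed the test (limma, -0.21 with adjusted p = 0.835 in hyperoxia and 0.48 with adjusted p = 0.334 in normoxia). The signal of this feature therefore did not separate the genotypes, and the labels do not place it relative to the altered part of the gene. Between oxygen levels, Fgf10 was called lower in hyperoxia in Fgf10+/- lungs (limma, -0.64, adjusted p = 0.0347), with overlapping groups. It did not pass in wild-type lungs (limma, 0.06, adjusted p = 0.897), and the difference between these responses did not pass either (limma adjusted p = 0.737). Replicate arrays correlated with r between 0.974 and 0.983 over all tested genes. The wild-type normoxia array numbered 4 stood apart in tissue markers. Its mean over 12 skeletal muscle markers was 8.30, against 4.81 to 5.23 on the other arrays of its group, and its mean over 9 brown fat markers was 6.41, against 5.38 to 5.63. All 14 alveolar type 2 markers lay above the array median in every group. Calls of the 35 genes that rest on the wild-type normoxia group, and their counts over all 35, are therefore also given without that array. Some medians and sign counts of the 35 and of the 17 mevalonate and sterol enzymes are given without it too. Counts by role, of markers, of related lists, of separate groups and of unadjusted p are given only with it. Fgf10+/- normoxia array 4 stood low in 10 macrophage markers, with a mean of 7.43 against 8.24 to 8.26 on the other arrays of its group. It was left out only in the fits that each dropped 1 array.

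Hyperoxia changed sterol and fatty acid genes in both directions. In Fgf10+/- lungs 9 of the 35 rose, 6 fell and 20 did not pass the test (limma on all 16 arrays, Benjamini-Hochberg adjusted p under 0.05 over 20173 genes), which is 42.9% called against 23.7% of all genes tested. In wild-type lungs 9 rose, 4 fell and 22 did not pass, which is 37.1% called against 19.1% of all genes. By direction, the background was 13.0% of all genes higher and 10.7% lower in Fgf10+/- lungs, and 10.3% higher and 8.74% lower in wild-type lungs. Hyperoxia and normoxia arrays did not overlap for 15 of the 35 in Fgf10+/- lungs, against 24.9% of all genes, and for 17 in wild-type lungs, against 24.8%. The median difference of the 35 was 0.18 in Fgf10+/- and 0.21 in wild-type lungs, beside 0.03 over all genes in each. The sterol-sensing genes Srebf2 and Insig2, the phosphomevalonate kinase gene Pmvk, the sterol enzyme Sqle, the malonyl-CoA producer Acaca and the desaturase Scd1 were the 6 that rose in both genotypes, where 7.63% of all genes did so. The sterol carrier Stard4, the elongase Elovl6 and the polyunsaturated fatty acid desaturases Fads1 and Fads2 were the 4 that fell in both, where 6.6% of all genes did so. No member was called in opposite directions, and 30 of 35 had the same sign in both genotypes. The share of all genes with the same sign was not counted, so this is not shown to be particular to the members. The group means of these comparisons share no arrays, but their tests share an estimate of the spread from all 16 arrays. Without the wild-type normoxia array numbered 4, the wild-type counts were 7 higher and 3 lower. The calls of Pmvk, Mvd, Msmo1 and Elovl6 were then lost and Tm7sf2 was gained. The other 9 wild-type calls held without it, with differences of 0.72 for Srebf2, 0.30 for Insig2, 0.83 for Idi1, 0.61 for Sqle, 0.63 for Acaca, 0.93 for Scd1, -0.57 for Stard4, -0.73 for Fads1 and -0.54 for Fads2 (limma adjusted p between 0.002 and 0.0372). The wild-type median of the 35 was then 0.24. In a homogenate, fewer cells of a type and less RNA per cell cannot be told apart. All 10 measured cycling-cell markers fell under hyperoxia in both genotypes, with means of 8.28 to 8.93 in Fgf10+/- hyperoxia against 10.17 to 10.36 in Fgf10+/- normoxia, and 7.48 to 8.12 in wild-type hyperoxia against 9.61 to 9.88 in wild-type normoxia. The mean of the 14 type 2 cell markers was 12.57 to 12.71 in Fgf10+/- hyperoxia against 12.03 to 12.23 in Fgf10+/- normoxia, and 12.81 to 12.98 in wild-type hyperoxia against 12.57 to 12.76 in wild-type normoxia. Of these 14, 8 rose and 1 fell in Fgf10+/- lungs, and 4 rose and 1 fell in wild-type lungs. Markers of other cells were called too. Of 9 lipofibroblast markers, 2 rose (Lpl, Plin2) and 3 fell (Pdgfra, Gyg, Lipa) in Fgf10+/- lungs, and 0 rose and 2 fell (Pdgfra, Gyg) in wild-type lungs. Their means were 10.27 to 10.43 in Fgf10+/- hyperoxia against 10.27 to 10.46 in Fgf10+/- normoxia, and 10.19 to 10.35 in wild-type hyperoxia against 10.30 to 10.58 in wild-type normoxia. Of 10 macrophage markers, which include Lpl too, 2 rose (Marco, Lpl) and 1 fell (Siglecf) in Fgf10+/- lungs, and 1 rose (Marco) and 2 fell (Fabp1, Siglecf) in wild-type lungs. Their means were 8.18 to 8.41 in Fgf10+/- hyperoxia against 7.43 to 8.26 in Fgf10+/- normoxia, and 7.95 to 8.16 in wild-type hyperoxia against 8.03 to 8.34 in wild-type normoxia. Of 9 brown fat markers, 3 rose in Fgf10+/- lungs (Ppargc1a by 1.38, Cox7a1 by 1.25 and Cox8b by 1.68) and 1 in wild-type lungs (Ppargc1a by 1.06). Their means were 5.61 to 6.12 in Fgf10+/- hyperoxia against 5.02 to 5.69 in Fgf10+/- normoxia, and 5.89 to 6.06 in wild-type hyperoxia against 5.38 to 6.41 in wild-type normoxia. Of 12 white fat markers, 2 rose and 0 fell in Fgf10+/- lungs, and 1 rose and 1 fell in wild-type lungs. Of 12 skeletal muscle markers, 0 were called in Fgf10+/- lungs and 1 fell in wild-type lungs. The part of these cell markers in the results on lipid genes was not tested.

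**Figure D1:**
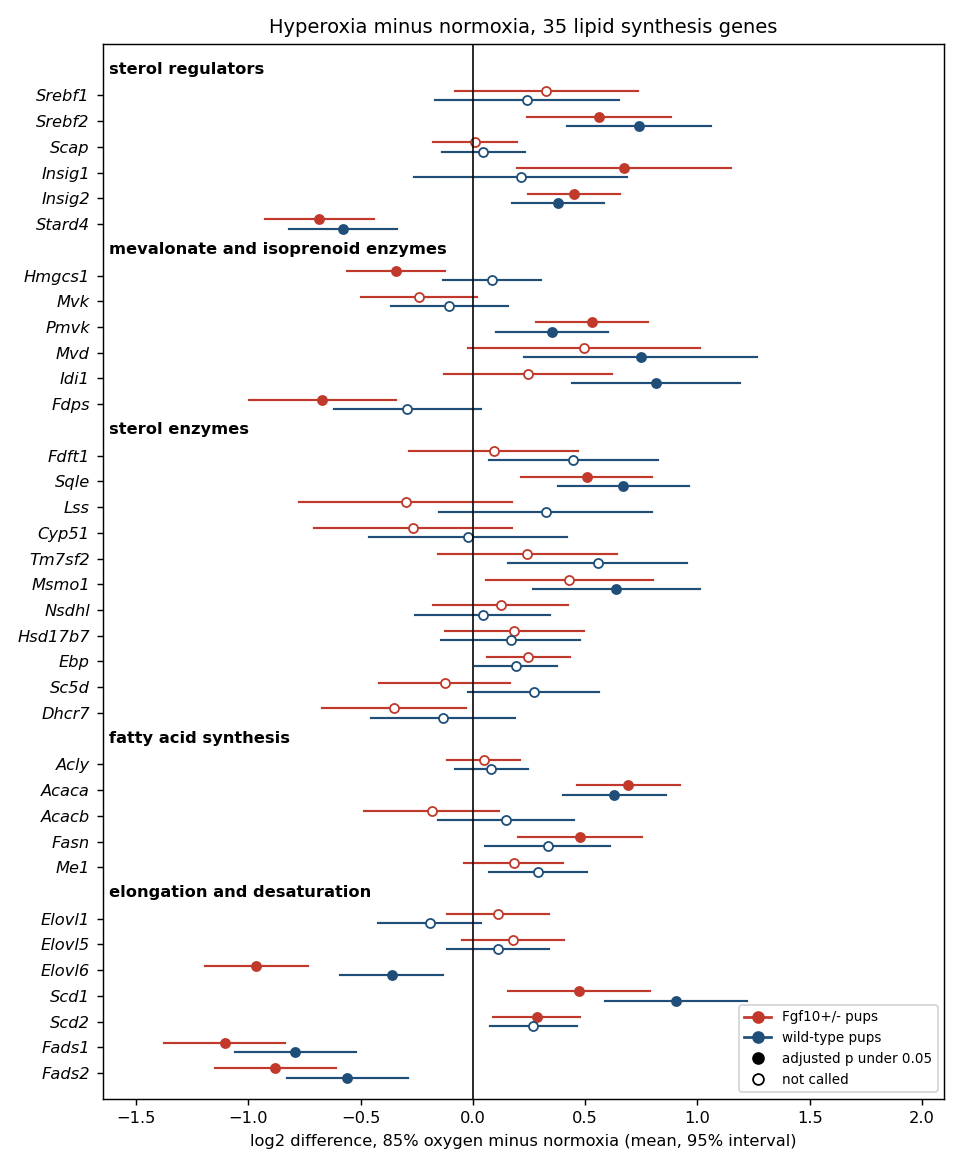
Log2 difference of hyperoxia against normoxia for each of the 35 genes, ordered by role, with 95% confidence intervals from limma, for Fgf10+/- and wild-type lungs. Elovl6, Fads1, Fads2 and Stard4 lie below 0 in both genotypes, while the interval includes 0 for 10 of the 17 mevalonate and sterol enzymes in Fgf10+/- and for 9 in wild-type lungs.

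Promoter windows of 5 genes are shown, of 3 sterol pathway enzymes that were each called in a single genotype (Hmgcs1, Msmo1 and Idi1) and of Fads2 and Elovl6, which fell in both. Of these 3 enzymes, Hmgcs1 fell in Fgf10+/- lungs while Msmo1 and Idi1 rose in wild-type lungs. Mvd and Fdps were also called in a single genotype and are not shown, so the 5 runs do not represent the members. Each run is the 250 bases before the RefSeq transcription start on build GRCm38.p6, read 5′ to 3′ on the strand of the gene. Capitals mark the letters TCACNCCAC, a form of the sterol response element bound by SREBP, the broader TCACNNCAC, which includes it, and CCAAT, the box bound by NF-Y, each on either strand.
Hmgcs1, chr13:119690101-119690350, plus strand: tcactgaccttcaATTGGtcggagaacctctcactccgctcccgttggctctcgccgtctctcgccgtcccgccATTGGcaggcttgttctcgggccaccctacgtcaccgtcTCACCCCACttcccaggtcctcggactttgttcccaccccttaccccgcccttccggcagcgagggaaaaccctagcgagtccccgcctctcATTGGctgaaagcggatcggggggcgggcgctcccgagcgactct
Msmo1, chr8:64733579-64733828, minus strand: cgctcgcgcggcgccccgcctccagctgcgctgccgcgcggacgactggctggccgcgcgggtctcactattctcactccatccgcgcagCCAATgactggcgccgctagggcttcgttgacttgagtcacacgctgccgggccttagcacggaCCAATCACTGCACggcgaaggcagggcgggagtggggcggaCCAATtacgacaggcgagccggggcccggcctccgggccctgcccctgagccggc
Idi1, chr13:8885356-8885605, plus strand: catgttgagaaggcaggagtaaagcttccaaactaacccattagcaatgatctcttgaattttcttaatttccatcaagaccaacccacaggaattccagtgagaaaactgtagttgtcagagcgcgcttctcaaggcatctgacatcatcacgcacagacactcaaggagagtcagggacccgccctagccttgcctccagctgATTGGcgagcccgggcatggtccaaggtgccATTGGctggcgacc
Fads2, chr19:10101504-10101753, minus strand: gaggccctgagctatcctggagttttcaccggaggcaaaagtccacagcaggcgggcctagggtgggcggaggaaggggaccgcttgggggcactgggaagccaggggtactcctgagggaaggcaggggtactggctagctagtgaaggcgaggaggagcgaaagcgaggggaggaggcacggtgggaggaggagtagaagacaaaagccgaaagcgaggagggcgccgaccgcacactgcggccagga
Elovl6, chr3:129532136-129532385, plus strand: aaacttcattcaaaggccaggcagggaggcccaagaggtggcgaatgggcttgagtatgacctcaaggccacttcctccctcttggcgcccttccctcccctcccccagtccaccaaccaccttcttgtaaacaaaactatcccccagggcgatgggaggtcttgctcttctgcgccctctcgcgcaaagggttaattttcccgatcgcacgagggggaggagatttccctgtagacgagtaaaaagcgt
In Msmo1 the TCACNNCAC match overlaps a CCAAT match. The Hmgcs1 run holds 1 TCACNCCAC match with CCAAT on the opposite strand on both sides, the Idi1 run holds only the CCAAT box among these letters, and the Fads2 and Elovl6 runs hold none of them.

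RefSeq windows of 300 bases, from 250 before to 50 after the start, were matched for 28 of the 35 genes by 38 windows. No window was used for Sqle, Fdft1, Stard4, Fads1, Scd1, Fdps and Scd2. Member windows on chromosome 18, where Stard4 lies, were left out, while the windows of all genes were not filtered by chromosome. Letters were searched on both strands in the member windows and in all 32851 windows of the table. CCAAT stood in 65.8% of the member windows, against 37.4% of all windows, and covered 24 of the 28 genes. GGGCGG, the SP1 box, stood in 71.1% against 35.7%, and in 46.2% of the windows of protein-coding genes. CACGTG, the E-box that SREBP1 and other factors bind, stood in 18.4% against 7.15%. TGACNNNGC, the core of the antioxidant response element, stood in 13.2% against 12.4%. TCACNCCAC stood in 1 of the 28 genes (Hmgcs1), with a match in 1.24% of all windows. The broader TCACNNCAC stood in 4 of the 28 (Hmgcs1, Msmo1, Dhcr7 and Hsd17b7), which is 10.5% of the member windows against 3.77% of all windows. Among members that rose in both genotypes, Srebf2, Insig2 and Pmvk had a CCAAT match and no TCACNNCAC match in their windows. Acaca, which also rose in both, had neither match, and Sqle and Scd1 had no window. A match describes these letters and is not a measured binding site.

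The genes grouped here as regulators had 3 of 6 higher and 1 lower in Fgf10+/- lungs, and 2 higher and 1 lower in wild-type lungs. The 1 that fell was Stard4, a sterol carrier, and the differences of the other 5 lay above 0 in both genotypes. Srebf2, which encodes SREBP2, the factor chiefly tied to sterol enzymes, read 6.94, 6.72, 6.83 and 7.25 in hyperoxia, against 5.98, 6.37, 6.59 and 6.56 in normoxia, in Fgf10+/- lungs. In wild-type lungs it read 7.03, 7.08, 7.12 and 7.01 in hyperoxia, against 6.43, 6.08, 6.53 and 6.25 in normoxia. Every hyperoxia array lay above every normoxia array of its genotype, and Srebf2 rose by 0.56 (SE 0.15, 1.48-fold, adjusted p = 0.0132) in Fgf10+/- and by 0.74 (SE 0.15, 1.67-fold, adjusted p = 0.00306) in wild-type lungs by limma. Srebf1, which encodes the SREBP1 isoforms, did not pass the test, at 0.33 (SE 0.19, adjusted p = 0.252) in Fgf10+/- and 0.24 (SE 0.19, adjusted p = 0.44) in wild-type lungs by limma. Scap, the escort of both factors, stood at 0.01 and 0.05 with a standard error of 0.09 in each.

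Insig2, which encodes one of the retention proteins of SCAP, read 9.70, 9.63, 9.64 and 9.50 in hyperoxia, against 9.07, 9.14, 9.20 and 9.26 in normoxia, in Fgf10+/- lungs. In wild-type lungs it read 9.76, 9.80, 9.87 and 9.81 in hyperoxia, against 9.65, 9.46, 9.41 and 9.20 in normoxia. The groups did not overlap in either genotype, and limma gave rises of 0.45 (SE 0.10, 1.37-fold, adjusted p = 0.00348) in Fgf10+/- and 0.38 (SE 0.10, 1.3-fold, adjusted p = 0.0122) in wild-type lungs. Its other, dimmer feature rose as well, by 0.67 (adjusted p = 0.0085) in Fgf10+/- and 0.88 (adjusted p = 0.00187) in wild-type lungs in a limma fit over all kept features. Insig1, itself a classical SREBP target, read 6.09, 6.06, 5.31 and 5.62 in hyperoxia, against 5.27, 4.83, 5.64 and 4.64 in normoxia, in Fgf10+/- lungs. Against that spread of normoxia arrays the groups overlapped, and Insig1 passed the limma test with a rise of 0.67 (SE 0.22, 1.59-fold, adjusted p = 0.0399). In wild-type lungs Insig1 read 5.81, 5.70, 5.62 and 5.43 in hyperoxia, against 5.74, 5.29, 5.48 and 5.21 in normoxia, a difference of 0.21 (SE 0.22, adjusted p = 0.582) by limma. Dropping single arrays ended the Insig1 call in 8 of 16 fits, among them Fgf10+/- normoxia 4 (adjusted p = 0.125), Fgf10+/- hyperoxia 1 (0.115), Fgf10+/- hyperoxia 2 (0.111) and Fgf10+/- normoxia 2 (0.109), with the other 4 fits between 0.0501 and 0.0509 (limma).

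Stard4, a soluble carrier of cholesterol between membranes and an SREBP2 target in liver cells, went the other way. It read 8.28, 8.67, 8.86 and 8.75 in hyperoxia, against 9.29, 9.43, 9.34 and 9.23 in normoxia, in Fgf10+/- lungs. In wild-type lungs it read 8.64, 8.74, 8.77 and 8.55 in hyperoxia, against 9.21, 9.30, 9.24 and 9.28 in normoxia. No hyperoxia array reached a normoxia array, and by limma Stard4 fell by 0.68 (SE 0.11, 1.61-fold, adjusted p = 0.000545) in Fgf10+/- and by 0.58 (SE 0.11, 1.49-fold, adjusted p = 0.0024) in wild-type lungs. Its second feature, near the array median, fell too, with -0.40 (adjusted p = 0.0408) and -0.45 (adjusted p = 0.0302) in the limma fit over all kept features.

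Of the 6 mevalonate and isoprenoid enzymes, 1 rose and 2 fell in Fgf10+/- lungs, and 3 rose and 0 fell in wild-type lungs. Hmgcs1 makes HMG-CoA, the entry to the mevalonate route, and read 11.00, 11.03, 10.99 and 10.80 in hyperoxia, against 11.50, 11.26, 11.15 and 11.28 in normoxia, in Fgf10+/- lungs. All 4 hyperoxia arrays lay below all 4 normoxia arrays, a fall of 0.34 (SE 0.10, 1.27-fold, adjusted p = 0.0242) by limma. In wild-type lungs Hmgcs1 read 11.18, 10.98, 11.28 and 11.02 in hyperoxia, against 10.95, 11.05, 11.15 and 10.96 in normoxia, with overlapping groups and a difference of 0.09 (SE 0.10, adjusted p = 0.635) by limma. The Fgf10+/- call was lost without Fgf10+/- hyperoxia array 4 (adjusted p = 0.0672) or without Fgf10+/- normoxia array 1 (0.0703) in limma. Mvk, mevalonate kinase, did not pass in either genotype (-0.24 in Fgf10+/- and -0.11 in wild-type lungs).

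Pmvk, which adds the next phosphate, read 11.07, 10.59, 10.74 and 10.77 in hyperoxia, against 10.21, 10.25, 10.37 and 10.22 in normoxia, in Fgf10+/- lungs. In wild-type lungs Pmvk read 10.67, 10.53, 10.59 and 10.44 in hyperoxia, against 10.31, 10.01, 10.41 and 10.10 in normoxia. The groups were separate in both genotypes, and by limma Pmvk rose by 0.53 (SE 0.12, 1.45-fold, adjusted p = 0.00407) in Fgf10+/- and by 0.35 (SE 0.12, 1.28-fold, adjusted p = 0.0486) in wild-type lungs. The wild-type call lay at the threshold and ended in 13 of 16 fits that each dropped an array, with an adjusted p of up to 0.141 (limma, without wild-type normoxia array 2). Mvd, the decarboxylase that makes isopentenyl diphosphate, read 7.28, 7.01, 7.12 and 6.75 in hyperoxia, against 6.61, 6.23, 6.43 and 5.92 in normoxia, in wild-type lungs. Those groups were separate, and Mvd rose by 0.75 (SE 0.24, 1.68-fold, adjusted p = 0.0436) by limma, a call that ended in 9 of 16 fits that each dropped an array (adjusted p up to 0.122, without wild-type normoxia array 4). In Fgf10+/- lungs Mvd read 7.19, 7.20, 7.07 and 6.15 in hyperoxia, against 6.63, 6.53, 5.89 and 6.59 in normoxia. Array 4 of the hyperoxia group lay far below the other 3, the difference was 0.49 (SE 0.24, adjusted p = 0.167) by limma, and without that array it was 0.75 (adjusted p = 0.0160).

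Idi1, the isomerase that makes dimethylallyl diphosphate, had the largest rise among these enzymes in wild-type lungs. It read 10.01, 9.56, 9.78 and 9.41 in hyperoxia, against 9.04, 8.42, 9.13 and 8.92 in normoxia, in wild-type lungs. The groups were separate, and Idi1 rose by 0.82 (SE 0.18, 1.76-fold, adjusted p = 0.00455) by limma. In Fgf10+/- lungs Idi1 read 9.51, 9.71, 9.46 and 9.13 in hyperoxia, against 9.42, 9.13, 9.05 and 9.22 in normoxia, where the lowest hyperoxia array lay inside the normoxia range and the difference was 0.25 (SE 0.18, adjusted p = 0.361) by limma. Fdps, which makes farnesyl diphosphate, read 9.94, 10.25, 9.90 and 9.52 in hyperoxia, against 10.62, 10.56, 10.58 and 10.53 in normoxia, in Fgf10+/- lungs. The 4 normoxia arrays were tightly grouped above all hyperoxia arrays, and Fdps fell by 0.67 (SE 0.15, 1.59-fold, adjusted p = 0.00528) by limma. In wild-type lungs Fdps read 10.00, 9.77, 10.14 and 10.16 in hyperoxia, against 10.20, 10.02, 10.56 and 10.45 in normoxia, with overlapping groups and a difference of -0.29 (SE 0.15, adjusted p = 0.214) by limma.

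Of the 11 sterol enzymes, which work from squalene synthesis to cholesterol, 1 rose in Fgf10+/- lungs and 2 in wild-type lungs, and 0 fell in either. Sqle, squalene epoxidase, an early rate-controlling step, read 10.07, 10.01, 9.75 and 9.76 in hyperoxia, against 9.61, 9.32, 9.36 and 9.28 in normoxia, in Fgf10+/- lungs. In wild-type lungs Sqle read 10.17, 10.12, 10.02 and 9.78 in hyperoxia, against 9.45, 9.14, 9.65 and 9.17 in normoxia. Hyperoxia arrays lay above normoxia arrays without overlap in both genotypes, and by limma Sqle rose by 0.51 (SE 0.14, 1.42-fold, adjusted p = 0.014) in Fgf10+/- and by 0.67 (SE 0.14, 1.59-fold, adjusted p = 0.00318) in wild-type lungs. Msmo1, the C4-methyl sterol oxidase, read 9.98, 9.81, 10.05 and 9.79 in hyperoxia, against 9.41, 8.92, 9.66 and 9.08 in normoxia, in wild-type lungs. These groups were separate, with a rise of 0.64 (SE 0.17, 1.56-fold, adjusted p = 0.0183) by limma, and the call was lost without wild-type hyperoxia array 3 (adjusted p = 0.0543), wild-type normoxia array 2 (0.0616) or wild-type normoxia array 4 (0.0551). In Fgf10+/- lungs Msmo1 read 10.13, 9.94, 9.57 and 9.47 in hyperoxia, against 9.53, 9.20, 9.27 and 9.40 in normoxia, with the groups overlapping and a difference of 0.43 (SE 0.17, adjusted p = 0.0929) by limma. Without Fgf10+/- hyperoxia array 4 that difference was 0.53 (adjusted p = 0.0486, limma).

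The other 9 sterol enzymes did not pass in either genotype. Their differences ran between -0.35 (Dhcr7, the last reductase of the Kandutsch-Russell branch) and 0.25 (Ebp, the sterol isomerase) in Fgf10+/- lungs. In wild-type lungs they ran between -0.13 (Dhcr7) and 0.56 (Tm7sf2, a C14 sterol reductase). Tm7sf2 had an adjusted p of 0.051 in wild-type lungs by limma, and without wild-type normoxia array 4 its difference was 0.73 (adjusted p = 0.00913). Its adjusted p was also under 0.05 without Fgf10+/- hyperoxia array 3 (0.0431) or Fgf10+/- normoxia array 1 (0.0466). Fdft1, squalene synthase, had separate wild-type groups and a difference of 0.45 (SE 0.18, adjusted p = 0.0945) by limma, and without Fgf10+/- hyperoxia array 4, which enters through the pooled spread, its adjusted p was 0.0461. Over the mevalonate and sterol enzymes together, 10 of 17 differences lay above 0 in Fgf10+/- lungs (median 0.12) and 13 of 17 in wild-type lungs (median 0.27), where 53.1% and 52.4% of all genes did. Without wild-type normoxia array 4 it was 14 of 17 in wild-type lungs (median 0.29).

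**Figure D2:**
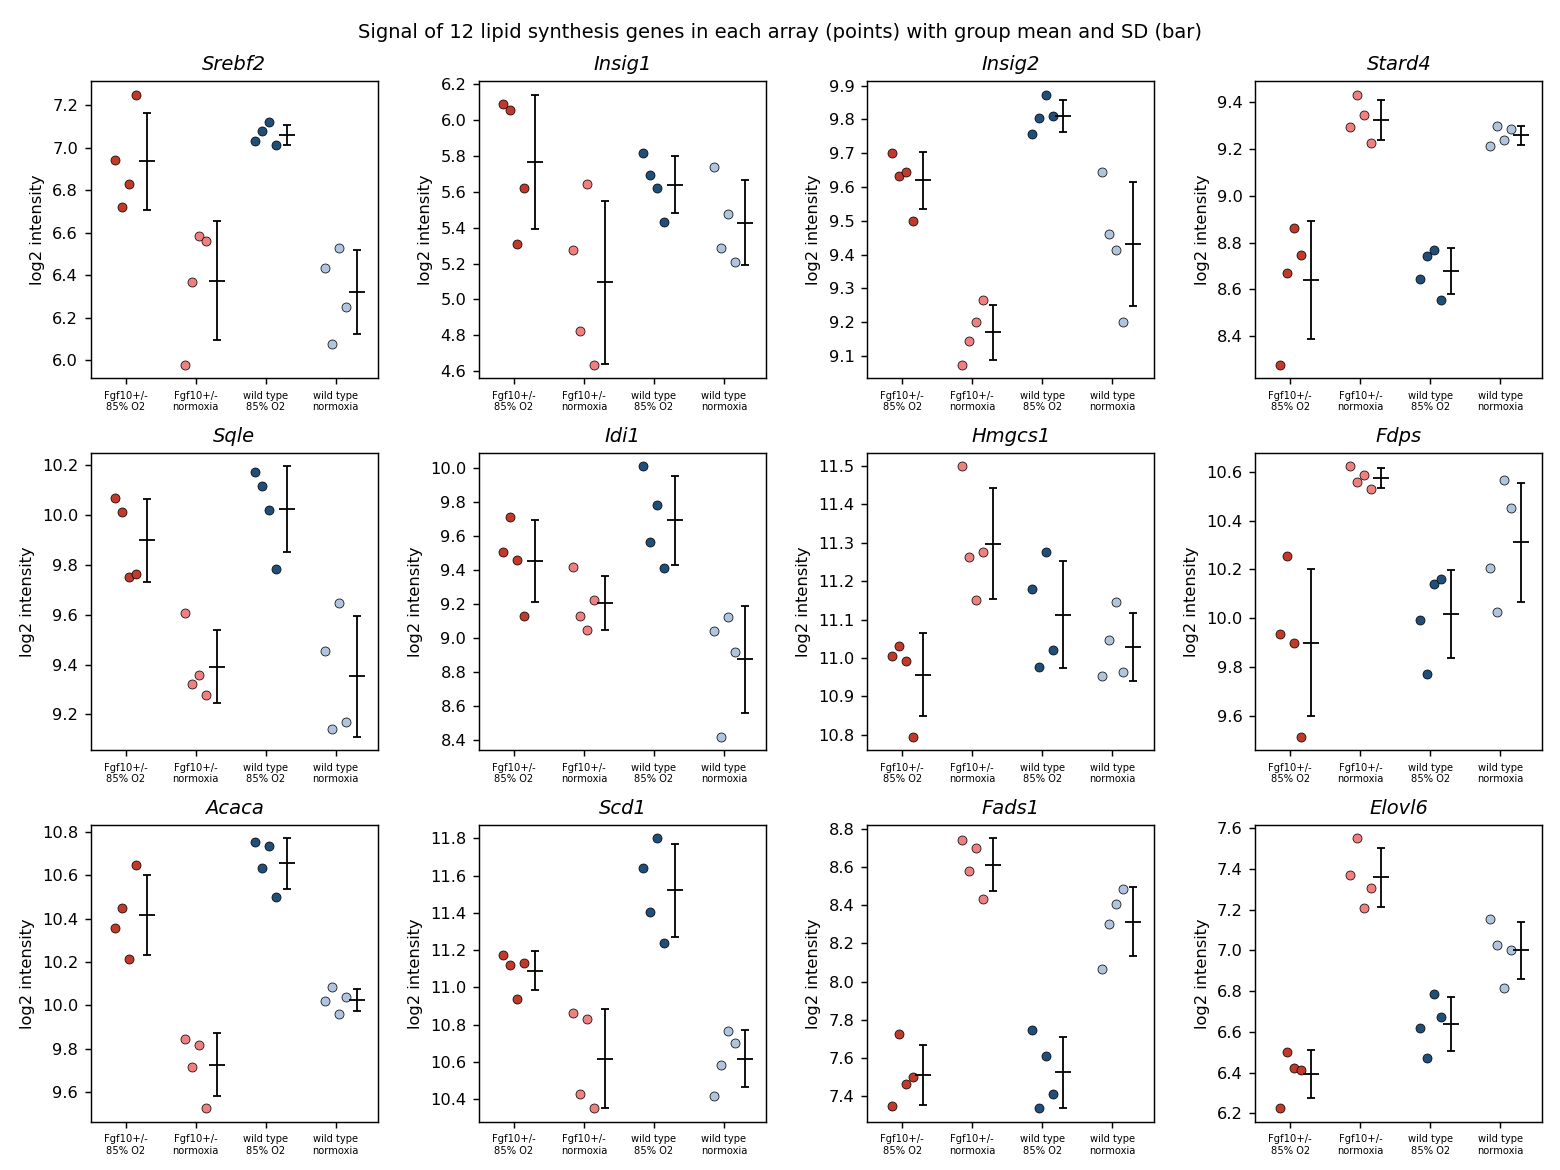
Log2 intensity on each of the 16 arrays for 12 of the 35 genes, with points for single arrays beside the group mean and SD. The normoxia arrays of Fads1 and Elovl6 lie above the hyperoxia arrays in both genotypes, while for Hmgcs1 and Fdps the groups are separate in Fgf10+/- lungs and overlap in wild-type lungs.

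Among the 5 genes of fatty acid synthesis, 2 rose in Fgf10+/- lungs, 1 rose in wild-type lungs and 0 fell. Acaca encodes the cytosolic acetyl-CoA carboxylase that makes malonyl-CoA, and read 10.36, 10.45, 10.21 and 10.65 in hyperoxia, against 9.84, 9.72, 9.82 and 9.52 in normoxia, in Fgf10+/- lungs. In wild-type lungs Acaca read 10.75, 10.63, 10.73 and 10.50 in hyperoxia, against 10.02, 10.08, 9.96 and 10.04 in normoxia. The groups were far apart relative to their spread in both genotypes, with limma rises of 0.69 (SE 0.11, 1.62-fold, adjusted p = 0.000336) in Fgf10+/- and 0.63 (SE 0.11, 1.55-fold, adjusted p = 0.000955) in wild-type lungs. Acaca had 4 features: the second, nearly as bright, rose by 0.49 (adjusted p = 0.0312) in Fgf10+/- and 0.64 (adjusted p = 0.00913) in wild-type lungs in the limma fit over all kept features. The other 2 averaged 4.78 and 4.00, close to the array median, and neither passed the test. With the mean of all 4 features in place of the brightest, the Acaca call was lost in both genotypes (limma adjusted p = 0.0992 in Fgf10+/- and 0.358 in wild-type lungs).

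Fasn, the palmitate-making synthase, read 7.60, 7.33, 7.14 and 7.45 in hyperoxia, against 7.09, 6.74, 7.00 and 6.78 in normoxia, in Fgf10+/- lungs. The groups were separate and Fasn rose by 0.48 (SE 0.13, 1.39-fold, adjusted p = 0.0147) by limma. In wild-type lungs Fasn read 7.62, 7.56, 7.57 and 7.14 in hyperoxia, against 7.22, 7.11, 7.07 and 7.16 in normoxia, where 1 hyperoxia array fell inside the normoxia range and the difference was 0.33 (SE 0.13, adjusted p = 0.0912) by limma. Without that array, wild-type hyperoxia 4, the difference was 0.44 (adjusted p = 0.0231). Acly, the citrate lyase that supplies cytosolic acetyl-CoA, stood at 0.05 in Fgf10+/- and 0.08 in wild-type lungs, with a standard error of 0.08. Acacb, the mitochondrial carboxylase, stood at -0.18 and 0.15 with a standard error of 0.14, and neither gene passed the test.

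Me1, the cytosolic malic enzyme that supplies NADPH for lipid synthesis, gave different values on its 3 features. On the brightest, which represents the gene here, Me1 did not pass the test, with 0.18 (SE 0.10, adjusted p = 0.235) in Fgf10+/- and 0.29 (SE 0.10, adjusted p = 0.0637) in wild-type lungs by limma. Without Fgf10+/- normoxia array 1 that value was 0.27 in Fgf10+/- lungs (adjusted p = 0.0493) and the wild-type adjusted p was 0.0298, and without wild-type hyperoxia array 4 it was 0.35 in wild-type lungs (adjusted p = 0.0387). The second feature gave 0.32 (adjusted p = 0.0377) in Fgf10+/- and 0.56 (adjusted p = 0.00199) in wild-type lungs in the limma fit over all kept features. The third read 9.24, 9.55, 9.65 and 9.25 in hyperoxia, against 8.81, 8.64, 8.69 and 8.67 in normoxia, in Fgf10+/- lungs. In wild-type lungs the third read 9.94, 9.64, 9.67 and 9.68 in hyperoxia, against 8.53, 8.28, 8.48 and 8.16 in normoxia. Its groups were separate in both genotypes, with rises of 0.72 (adjusted p = 0.000725) and 1.37 (adjusted p = 9.78e-06) by limma, which are 1.65-fold and 2.58-fold. All 3 features gave the same sign in both genotypes, and the files do not say which transcripts each one binds.

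**Figure D3:**
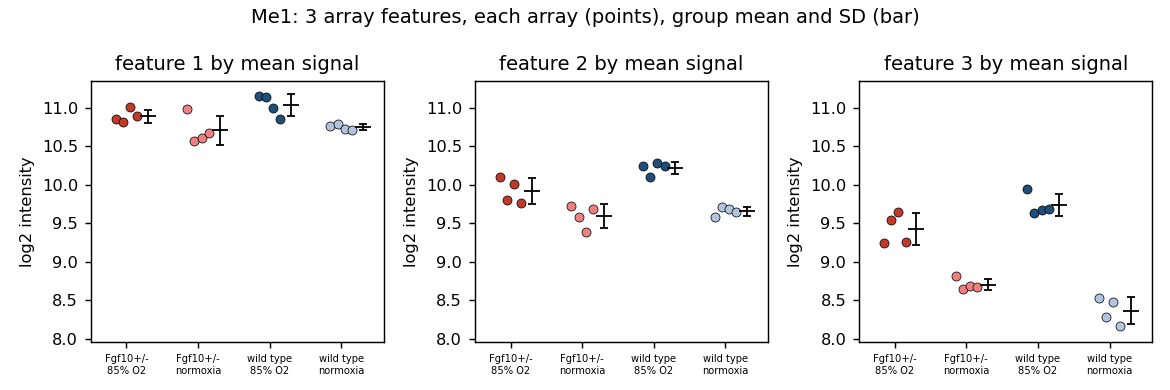
Log2 intensity of the 3 Me1 features on each array, by group, with points for arrays beside the group mean and SD. The separation of hyperoxia from normoxia is smallest on the brightest feature and widest on the dimmest, at 0.72 in Fgf10+/- and 1.37 in wild-type lungs.

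Of the 7 elongases and desaturases, 2 rose and 3 fell in Fgf10+/- lungs, and 1 rose and 3 fell in wild-type lungs. Scd1, the desaturase that makes oleate and palmitoleate, read 11.17, 11.12, 10.94 and 11.13 in hyperoxia, against 10.86, 10.43, 10.83 and 10.35 in normoxia, in Fgf10+/- lungs. In wild-type lungs Scd1 read 11.64, 11.40, 11.80 and 11.24 in hyperoxia, against 10.42, 10.58, 10.77 and 10.70 in normoxia. The groups were separate in both genotypes, and by limma Scd1 rose by 0.47 (SE 0.15, 1.39-fold, adjusted p = 0.0304) in Fgf10+/- and by 0.90 (SE 0.15, 1.87-fold, adjusted p = 0.000703) in wild-type lungs. The Fgf10+/- call ended in 5 of 16 fits that each dropped an array, namely Fgf10+/- hyperoxia 1, 2 or 4 and Fgf10+/- normoxia 2 or 4, with an adjusted p between 0.0609 and 0.0967 (limma). Scd2, the form prominent in newborn mice, read 12.60, 12.67, 12.58 and 12.79 in hyperoxia, against 12.26, 12.45, 12.23 and 12.57 in normoxia, in Fgf10+/- lungs. Its groups just cleared each other, with a rise of 0.28 (SE 0.09, 1.22-fold, adjusted p = 0.0341) by limma, lost without Fgf10+/- hyperoxia 2 or 4 or Fgf10+/- normoxia 1 or 3 (adjusted p between 0.0698 and 0.0979). In wild-type lungs Scd2 read 12.73, 12.74, 12.77 and 12.73 in hyperoxia, against 12.40, 12.52, 12.43 and 12.56 in normoxia, also without overlap, and its difference of 0.27 (SE 0.09, adjusted p = 0.0516) by limma lay just past the threshold. Leaving out Fgf10+/- hyperoxia 4 or Fgf10+/- normoxia 1, 3 or 4, which enter through the pooled spread, brought that adjusted p to between 0.0404 and 0.0498 (limma).

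Both desaturases of polyunsaturated fatty acids fell in both genotypes, and Fads1 had the largest difference of the 35 genes in Fgf10+/- lungs. Fads1 inserts the last double bond of arachidonate, and read 7.35, 7.72, 7.46 and 7.50 in hyperoxia, against 8.74, 8.58, 8.70 and 8.43 in normoxia, in Fgf10+/- lungs. In wild-type lungs Fads1 read 7.74, 7.33, 7.61 and 7.41 in hyperoxia, against 8.07, 8.30, 8.41 and 8.49 in normoxia. The groups were far apart in both genotypes, and by limma Fads1 fell by 1.11 (SE 0.13, 2.15-fold, adjusted p = 3.62e-05) in Fgf10+/- and by 0.79 (SE 0.13, 1.73-fold, adjusted p = 0.0006) in wild-type lungs. Fads2, which works ahead of Fads1 on linoleate and linolenate, read 5.39, 5.68, 5.70 and 5.13 in hyperoxia, against 6.38, 6.33, 6.27 and 6.43 in normoxia, in Fgf10+/- lungs. In wild-type lungs Fads2 read 5.60, 5.93, 5.64 and 5.63 in hyperoxia, against 6.12, 6.33, 6.27 and 6.33 in normoxia. Again no hyperoxia array reached a normoxia array, and by limma Fads2 fell by 0.88 (SE 0.13, 1.84-fold, adjusted p = 0.000193) in Fgf10+/- and by 0.56 (SE 0.13, 1.47-fold, adjusted p = 0.00612) in wild-type lungs. A second, dim Fads2 feature gave -0.46 (adjusted p = 0.238) and -0.46 (adjusted p = 0.267), which did not pass the limma test.

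Elovl6, which lengthens palmitate to stearate, read 6.23, 6.50, 6.43 and 6.41 in hyperoxia, against 7.37, 7.55, 7.21 and 7.30 in normoxia, in Fgf10+/- lungs. In wild-type lungs Elovl6 read 6.62, 6.47, 6.79 and 6.67 in hyperoxia, against 7.15, 7.03, 6.82 and 7.00 in normoxia. The groups were separate in both genotypes, and by limma Elovl6 fell by 0.97 (SE 0.11, 1.95-fold, adjusted p = 3.14e-05) in Fgf10+/- and by 0.36 (SE 0.11, 1.28-fold, adjusted p = 0.0288) in wild-type lungs. The wild-type call ended in 5 of 16 fits that each dropped an array, namely wild-type hyperoxia 1 or 2 and wild-type normoxia 1, 2 or 4, with an adjusted p between 0.0577 and 0.0897 (limma). Elovl5, which lengthens polyunsaturated fatty acids, did not pass, at 0.18 in Fgf10+/- and 0.11 in wild-type lungs. Elovl1, which lengthens very long saturated chains, stood at 0.11 and -0.19, and did not pass either.

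The question whether the response to oxygen depended on genotype is answered by the interaction, the hyperoxia difference in Fgf10+/- lungs minus that in wild-type lungs. It gave 0 calls among the 35 members and 0 among all 20173 genes by limma, which is 0.0% of all genes. At an unadjusted p under 0.05 there were 3 of 35 members, where 6.62% of all genes passed. These 3 were Elovl6 at -0.60 (95% interval -0.93 to -0.28, limma adjusted p = 0.562), Hmgcs1 at -0.43 (95% interval -0.73 to -0.12, limma adjusted p = 0.68) and Idi1 at -0.57 (95% interval -1.10 to -0.04, limma adjusted p = 0.737). The interval excluded a 2-fold difference in response either way for 32 of 35 members, and reached it for Insig1, Idi1 and Lss. The 3 members called in wild-type lungs alone (Mvd, Idi1, Msmo1) and the 5 called in Fgf10+/- lungs alone (Insig1, Hmgcs1, Fdps, Fasn, Scd2) are therefore not shown to respond differently. Over the 17 mevalonate and sterol enzymes, 13 interaction values lay below 0 (median -0.25), where 48.3% of all genes lay below 0. Without wild-type normoxia array 4 the interaction still gave 0 calls among the 35, and 14 of the 17 values lay below 0 (median -0.19), with Elovl6 at -0.61, Hmgcs1 at -0.41 and Idi1 at -0.58.

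Fgf10 heterozygosity was compared with wild type at each oxygen level, and none of the 35 genes passed the test. In hyperoxia 0 of 35 were called, where 0.411% of all genes were, and 5 of 35 had an unadjusted p under 0.05, where 9.01% of all genes did. In normoxia 0 of 35 were called, where 0.719% of all genes were, and 8 of 35 had an unadjusted p under 0.05, where 12.9% of all genes did. With limma's trend and robust options, 1 member, Elovl1, was called lower in Fgf10+/- normoxia (-0.31, adjusted p = 0.0479), and 0 were called in hyperoxia. The 95% interval excluded a 2-fold difference for 35 of 35 members at each oxygen level. In hyperoxia 31 of 35 differences lay below 0 (median -0.13), where 51.1% of all genes did. In normoxia 21 of 35 lay above 0 (median 0.07), where 49.5% of all genes did, among them 15 of the 17 mevalonate and sterol enzymes. Without wild-type normoxia array 4, 20 of 35 lay above 0 in normoxia (median 0.03), among them 13 of the 17 enzymes, and 0 of 35 were called. Wild-type normoxia array 2 was the lowest of its group in 12 of the 17 enzymes. The sign counts of these enzymes, here, under hyperoxia and in the interaction, are not given without that array. These comparisons share arrays with the hyperoxia comparisons and with the interaction.

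**Figure D4:**
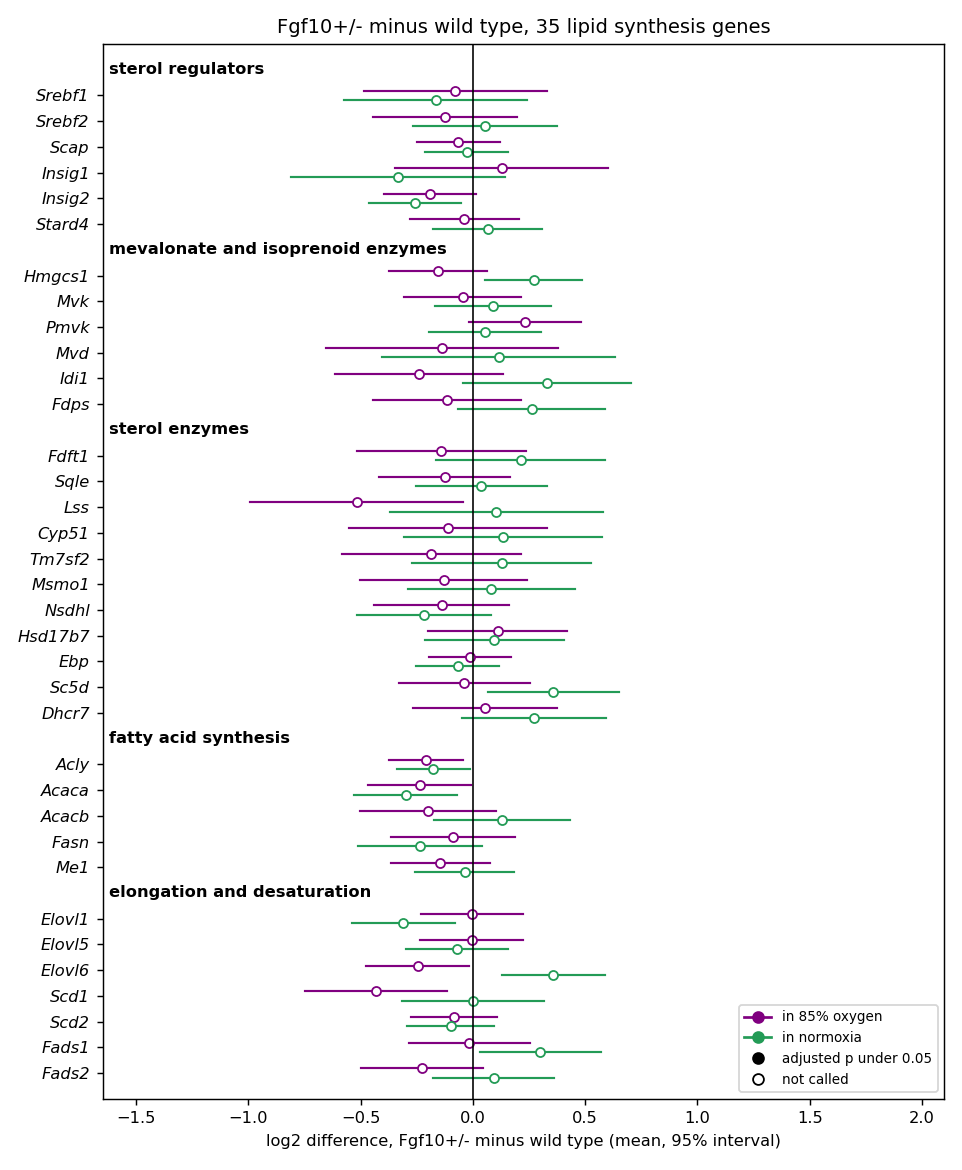
Log2 difference of Fgf10+/- against wild type for each of the 35 genes, ordered by role, with 95% confidence intervals from limma, in hyperoxia and in normoxia. In hyperoxia 31 of 35 points lie left of 0, and 0 of the 35 passed the test at either oxygen level.

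For some lipid genes the arrays of the genotypes did not overlap. With 35 genes these counts are not set apart from the share over all genes. In hyperoxia 3 of 35 did, all lower in Fgf10+/- lungs (Insig2, Acly, Scd1), where 5.98% of all genes were separate either way. Scd1 differed by -0.43 (SE 0.15, adjusted p = 0.349) and Insig2 by -0.19 (SE 0.10, adjusted p = 0.594) there, both by limma. In normoxia 5 of 35 did, with Hmgcs1, Sc5d and Elovl6 higher and Acly and Acaca lower in Fgf10+/- lungs, where 7.53% of all genes were separate. Acly was the member separate at both oxygen levels. It read 11.26, 11.30, 11.40 and 11.49 in Fgf10+/- hyperoxia, against 11.54, 11.64, 11.51 and 11.60 in wild-type hyperoxia. In normoxia Acly read 11.30, 11.39, 11.26 and 11.32 in Fgf10+/- lungs, against 11.45, 11.49, 11.51 and 11.53 in wild-type lungs. The differences were small and did not pass, at -0.21 (SE 0.08, adjusted p = 0.392) in hyperoxia and -0.18 (SE 0.08, adjusted p = 0.343) in normoxia by limma.

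In normoxia Elovl6 stood 0.36 higher in Fgf10+/- lungs (SE 0.11, limma adjusted p = 0.148), Sc5d, a late sterol desaturase, 0.36 higher (adjusted p = 0.266) and Hmgcs1 0.27 higher (adjusted p = 0.263), while Acaca stood at -0.30 (SE 0.11, adjusted p = 0.234). Without wild-type normoxia array 4 these normoxia differences were 0.36 for Elovl6, 0.41 for Sc5d, 0.25 for Hmgcs1, -0.29 for Acaca and -0.16 for Acly. Hmgcs1 lies on chromosome 13 near Fgf10, with 5 protein-coding genes between them. Nnt, the mitochondrial transhydrogenase gene next to Fgf10 and named here for its position, was called higher in Fgf10+/- normoxia by 0.67 (SE 0.12, limma adjusted p = 0.0175), and stood at 0.40 in hyperoxia (adjusted p = 0.244). The labels do not give the strain of the altered chromosome, and its part in the Hmgcs1 value was not tested. Markers of type 2 cells and of cycling cells moved with genotype as well: 4 of 14 type 2 markers were lower and 4 of 10 cycling markers higher in Fgf10+/- hyperoxia, where 0.119% of all genes were lower and 0.292% higher. In Fgf10+/- normoxia 6 of 14 type 2 markers were lower and 1 of 10 cycling markers higher, where 0.605% of all genes were lower and 0.114% higher. Their part in the values of the lipid genes was not tested.

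The deviations of single arrays from their groups were compared between genes. After each group's mean was removed, the median Pearson correlation among the 17 mevalonate and sterol enzymes was 0.27 over 136 pairs, with 24.3% of pairs above 0.5. Among the 12 fatty acid genes it was 0.05 over 66 pairs, with 7.58% above 0.5, and between the 2 sets it was 0.03 over 204 pairs. Against all tested genes the 17 enzymes had a median of 0.00431 over 342533 pairs, with 5.25% above 0.5. These values describe 16 arrays with 12 residual degrees of freedom, and pairs share the same arrays, so no p is given. The enzymes with the highest median correlation with the others were Msmo1 (0.58), Sqle (0.50) and Idi1 (0.50), and the lowest was Tm7sf2 (-0.20). By array, wild-type normoxia array 2 was the lowest of its group in 12 of 17 enzymes, wild-type normoxia array 3 was the highest in 10, and Fgf10+/- hyperoxia array 4 lay below its group mean in 14.

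**Figure D5:**
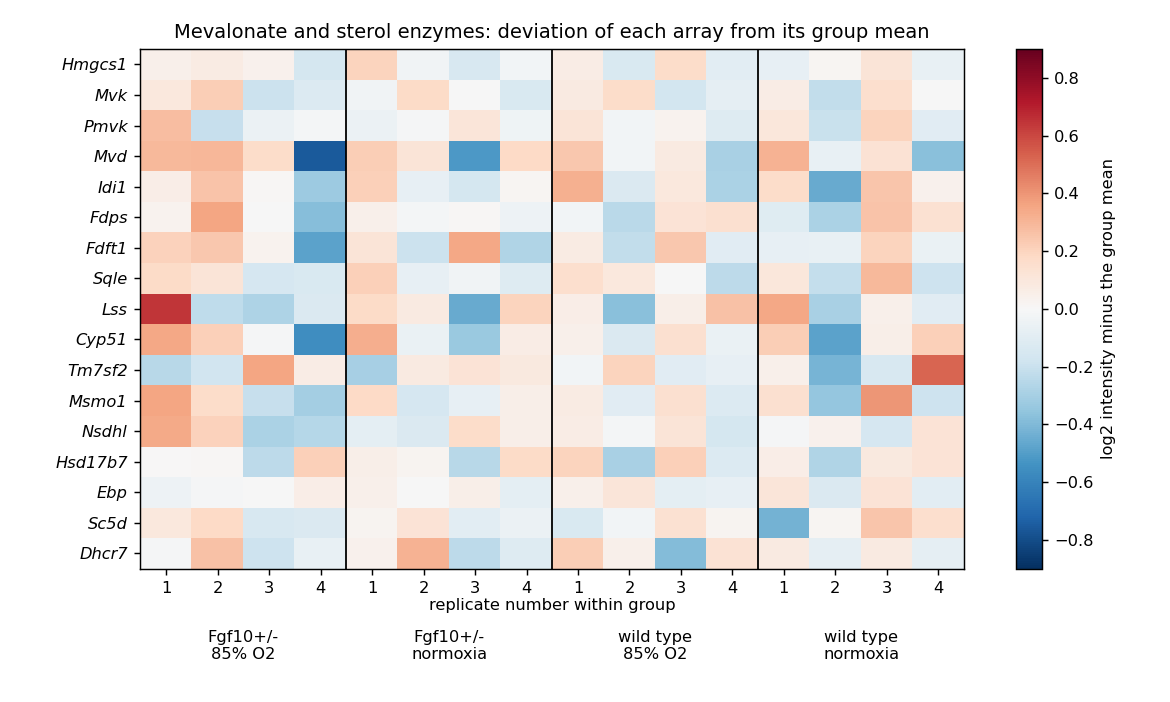
Deviation of each array from its group mean, in log2 units, for the 17 mevalonate and sterol enzymes. Wild-type normoxia array 2 and Fgf10+/- hyperoxia array 4 lie below their group means in 14 of 17 enzymes each, and wild-type normoxia array 3 lies above its mean in 15.

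Related genes outside the 35 were read from 6 lists, and their counts under hyperoxia stand beside 23.7% of all genes called in Fgf10+/- lungs and 19.1% in wild-type lungs. Of 13 measured genes of 15 listed for other sterol and isoprenoid steps, 6 rose and 0 fell in Fgf10+/- lungs (46.2% called, median 0.42), and 6 rose and 1 fell in wild-type lungs (53.8% called, median 0.44). Nus1, a subunit of the dolichol-making prenyltransferase, rose by 0.77 in Fgf10+/- and 0.99 in wild-type lungs. Cyb5a, an electron donor of sterol and fatty acid desaturation, rose by 0.81 in Fgf10+/- and 0.63 in wild-type lungs, and the related Cyb5b of the outer mitochondrial membrane rose by 0.39 in Fgf10+/- and 0.70 in wild-type lungs. Por, the reductase that feeds electrons to squalene epoxidase and the lanosterol demethylase, rose by 0.83 in Fgf10+/- lungs and by 0.46 in wild-type lungs. The 1 gene that fell, named for that after its value was seen, was Cyb5r3, the cytochrome b5 reductase, by 0.57 in wild-type lungs. Of 13 measured genes of 14 listed for SREBP processing and sterol sensing, 1 rose (Mbtps2, the membrane protease that releases SREBP, 0.74) and 1 fell (Sec23a, a coat protein of transport vesicles, -0.86) in Fgf10+/- lungs, and 1 rose (Erlin1, 0.48) in wild-type lungs. These are 15.4% called in Fgf10+/- and 7.69% in wild-type lungs. With so few calls among 13 genes, no difference from the share over all genes can be read.

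Of 17 genes of sterol uptake, storage and export, 5 rose and 2 fell in Fgf10+/- lungs (41.2% called, median 0.19), and 3 rose and 1 fell in wild-type lungs (23.5% called, median 0.00). Npc2, the lysosomal cholesterol-binding protein, rose by 0.68 in Fgf10+/- and 0.31 in wild-type lungs. Stard10, a phospholipid transfer protein, rose by 1.05 in Fgf10+/- lungs and did not pass in wild-type lungs (0.46, limma adjusted p = 0.121). Nr1h3, the sterol-sensing nuclear receptor LXR alpha, rose by 0.53 in Fgf10+/- and 0.70 in wild-type lungs. Scarb1, the HDL receptor, fell by 0.80 in Fgf10+/- lungs and by 0.95 in wild-type lungs. Of 22 other genes of fatty acid synthesis and elongation, 6 rose and 2 fell in Fgf10+/- lungs (36.4% called, median 0.26), and 5 rose and 1 fell in wild-type lungs (27.3% called, median 0.25). Fads3, a relative of Fads1 and Fads2, rose by 0.61 in Fgf10+/- lungs and by 0.46 in wild-type lungs. Acss2, which makes acetyl-CoA from acetate, rose by 0.77 in Fgf10+/- and 0.59 in wild-type lungs. Within the elongation cycle, the dehydratase gene Hacd3 rose by 0.47 in Fgf10+/- and 0.34 in wild-type lungs, while Tecr, the last reductase, fell by 0.62 in Fgf10+/- lungs and by 0.70 in wild-type lungs.

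Of 16 genes of phospholipid and glyceride synthesis, 7 rose and 0 fell in Fgf10+/- lungs (43.8% called, median 0.45), and 5 rose and 0 fell in wild-type lungs (31.2% called, median 0.29). Chka, choline kinase, rose by 0.77 in Fgf10+/- and 0.72 in wild-type lungs, and Pcyt1a, the rate-limiting enzyme of phosphatidylcholine synthesis, rose by 0.59 in Fgf10+/- and 0.57 in wild-type lungs. Agpat2, which makes phosphatidic acid, rose by 0.83 in Fgf10+/- and 0.64 in wild-type lungs, and Lpin3, a phosphatidate phosphatase, rose by 0.69 in Fgf10+/- and 0.57 in wild-type lungs. Of 7 measured genes of 8 listed for NADPH supply, 1 rose and 2 fell in Fgf10+/- lungs (42.9% called, median -0.04), and 1 rose and 0 fell in wild-type lungs (14.3% called, median 0.17). The riser was Pgd of the pentose phosphate pathway, at 0.85 in Fgf10+/- and 0.72 in wild-type lungs. Tkt of the same pathway fell by 0.53 and Nnt by 0.35 in Fgf10+/- lungs. Between genotypes, Nnt in normoxia was the 1 gene of these 6 lists that was called.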

How the data were processed

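Gene expression was measured in 16 lung homogenates, 1 single-colour array each. The deposited values are log2 intensities, and the authors' background correction, normalization and scan settings are not stated. Array medians differ by 0.00068 and the maximum is 15.99, and they were taken as quantile normalized and used as deposited. Of 62976 features, 31465 carry 1 gene symbol, 0 several and 31511 none, and 28999 were named through RefSeq accessions, 2059 by current symbols and 349 by synonyms. Features were kept that exceeded their array's 25th percentile on 4 or more of the 16 arrays, and the brightest kept feature stood for its gene, so all 53 features of the 35 genes were kept.

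Group means were fitted with limma 3.58.1 in R 4.3.3 (12 residual and 2.129 prior degrees of freedom, 33 missing values left out), with 5 contrasts and Benjamini-Hochberg adjustment over 20173 genes within each. Precision is limited by the number of arrays. The script was tested on simulated data. Arrays were treated as unpaired. Residuals of arrays with the same replicate number correlated between -0.029 and 0.087. This covers pairing by replicate number alone, and shared litters could not be checked. The members, lists, markers and alternatives were chosen with earlier results of these data known. Values in every array are given for members called in at least 1 contrast, and lists name up to 4 members called under hyperoxia, those with the smallest p in either genotype. Alternatives changed the filter, the feature, the scaling, the moderation, array weights, the arrays fitted, the replicate block, the fold minimum and a sex covariate, or left out 1 array. The sample titles give no sex, and its spread over the groups is not given here. Each other feature of a member was fitted as an alternative added after seeing the data.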

Additional observations from a re-analysis of the deposited data

Results flagged for a closer look

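Groups of 4 arrays were searched for a single array far from the other 3 (Dixon's gap test at its 95% level) in the 35 genes, and 9 of 140 groups had one, where chance gives about 1 in 20. Fgf10+/- hyperoxia array 4 was the lowest for Mvd at 6.15 (nearest array 7.07) and for Hmgcs1 at 10.80 (nearest 10.99). Fgf10+/- hyperoxia array 1 was the highest for Lss at 5.9997 (nearest 5.23). In Fgf10+/- normoxia, array 3 was the lowest for Mvd at 5.89 (nearest 6.53) and array 1 was the lowest for Tm7sf2 at 8.00 (nearest 8.38). In wild-type hyperoxia, array 4 was the lowest for Fasn at 7.14 (nearest 7.56) and array 2 was the highest for Fads2 at 5.93 (nearest 5.64). In wild-type normoxia, array 3 was the highest for Fdft1 at 7.97 (nearest 7.71) and array 2 was the lowest for Hsd17b7 at 5.66 (nearest 5.99).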

How the results depend on the processing

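Of the 28 calls that the 35 genes received under hyperoxia, 10 held under all 11 alternatives and all 16 left-out arrays. These were Elovl6, Fads1, Fads2, Fdps and Stard4 in Fgf10+/- lungs, and Fads1, Idi1, Scd1, Sqle and Srebf2 in wild-type lungs. With a fold minimum of 1.5, 2 members were higher and 5 lower in Fgf10+/- lungs, where 2845 of all genes were called. In wild-type lungs 7 were higher and 1 was lower, where 2140 of all genes were called. Fitting only the groups compared left 4 members higher in Fgf10+/- lungs, and 0 of all genes called between genotypes at either oxygen level. The single features of Acaca that changed sign were the dim ones, at -0.027 in Fgf10+/- lungs (limma adjusted p = 0.969) and -0.52 in wild-type lungs (adjusted p = 0.216). Leaving out 1 array gave 6 to 9 members higher and 5 to 6 lower in Fgf10+/- lungs, with 3996 to 4879 of all genes called, and 6 to 11 higher and 3 to 4 lower in wild-type lungs, with 3078 to 3961 of all genes called. The lowest wild-type count, 6 higher, came without wild-type hyperoxia array 3 or wild-type normoxia array 2, and the lowest Fgf10+/- count, 6 higher, without Fgf10+/- hyperoxia array 2.

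Between genotypes, all-gene counts moved most. In hyperoxia 126 genes were called with the 50th percentile filter, 223 with trend and robust options and 40 with a sex covariate, against 83 as reported. In normoxia 283 were called with the 50th percentile filter, 94 with the mean of all kept features, 433 with trend and robust options and 290 with array weights, against 145. Trend and robust options called 1 member lower in Fgf10+/- normoxia. Leaving out 1 array gave 13 to 80 calls in hyperoxia, 44 to 292 in normoxia and 0 to 1 in the interaction, with 0 members called in any of them. The cause of these shifts was not tested. Replicate numbers did not pair the arrays. With the replicate number as a block, 9 members rose and 6 fell in Fgf10+/- lungs, 11 rose and 3 fell in wild-type lungs, and 37 genes were called between genotypes in hyperoxia.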
